A study of Homo sapiens with 8 samples.

Results

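The 2 EI24 knockdown clones of ZR-75-1 were compared with each other across 18417 genes, with 2 arrays for each clone. ZR-75-1 is a luminal, estrogen receptor-positive human breast cancer line, and EI24 (also called PIG8) is a p53-induced protein of the endoplasmic reticulum with a role in autophagy. The 4 arrays of the comparison, of 8 in the series, came from cells carrying shEI24, and the first number in their labels (#1 or #2) was read as the clone: clone 1 and clone 2 are described in the series as independent knockdown clones. The other 4 arrays came from ZR-75-1 cells carrying shGFP, the knockdown control, and from parental ZR-75-1 cells without shRNA, again 2 arrays each. All cells were grown in the same serum-containing RPMI medium and received no chemical. No other allele or agent was given in the labels, each clone is a single selected line, and the labels leave unsaid if both arrays of a line stem from different cultures. The p-values therefore measure only the spread between these arrays, which may be technical. With 1 line per clone, effects of the short hairpin, of its degree of knockdown and of clonal selection cannot be told apart.

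Clones of a cell line are grown from different founder cells, so they can share a change and still differ in other genes. Cytokine genes such as IL1B and IL6 are switched on by NF-κB, a transcription factor family held in check by IκB proteins and A20 (TNFAIP3). Interferon-stimulated genes form the antiviral program downstream of interferon receptors and RNA sensors. The enzymes of DNA replication, many of them targets of E2F factors, and the core histones are made as cells enter S phase, and cancer-testis genes are germline genes, many on the X chromosome, that tumors can re-express.

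EI24 itself was low in both clones and lower in clone 1. Its log2 intensity was 8.64 and 8.43 in clone 1, 9.25 and 9.19 in clone 2, 11.97 and 11.91 with shGFP and 12.08 and 12.09 in parental cells. All 4 knockdown arrays lay below all control arrays, and the clones did not overlap. The clones differed by -0.68 (SE 0.10, limma adjusted p = 0.0023), with EI24 at -3.40 in clone 1 and -2.72 in clone 2 relative to shGFP. Here and below a difference is the log2 intensity of clone 1 minus that of clone 2 unless another pair is named, and a gene was called higher or lower when its adjusted p in the limma fit over all genes was under 0.05.

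Of the defining luminal markers of ZR-75-1, ESR1, CDH1 and GATA3 were low in both clones and did not separate them. Such low levels go against the luminal type of ZR-75-1, the line named in the labels. KRT19, also a defining marker, did separate the clones (-2.24) and stayed bright in clone 2, with a mean of 12.14 against 12.57 in shGFP. ESR1, the estrogen receptor, lay at 5.92 and 6.11 in clone 1 and 6.04 and 5.81 in clone 2, against a mean of 10.77 in shGFP. CDH1, encoding E-cadherin, lay at 6.09 and 6.14 in clone 1 and at 6.10 and 6.48 in clone 2, against 12.31 in shGFP. GATA3, a luminal transcription factor, gave 7.50 and 7.33 in clone 1 and 7.25 and 7.57 in clone 2, against 12.23 in shGFP. The clones overlapped in all 3 genes, and CDH1 differed by -0.18 (SE 0.12, limma adjusted p = 0.43). The mesenchymal gene VIM (vimentin) was bright in both, at 13.17 and 13.13 in clone 1 and 13.29 and 13.21 in clone 2. ZEB1, a repressor of CDH1, differed by 0.11 (SE 0.14, limma adjusted p = 0.7), and the keratins KRT8 and KRT18 by -0.23 and -0.24 with adjusted p of 0.14 for both. None of 21 immune cell markers was called in either direction, and of 13 endothelial markers 1 was higher and 0 lower. In arrays of whole cultures, fewer cells of a type and less RNA per cell cannot be told apart.

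Of the 18417 genes, 1711 were higher in clone 1 (9.29%) and 1083 were lower (5.88%). At least 2-fold differences were fewer, with 200 genes higher (1.09%) and 82 lower (0.445%). The median difference over all genes was -0.02. For comparison, 49.6% of genes were called between clone 1 and shGFP and 53.0% between clone 2 and shGFP, counting both directions. These last comparisons share the shGFP arrays. The number of genes called fell when any 1 array was left out. It also fell without an array of shGFP or parental cells, which does not enter the difference between the clones. Leaving out a clone array also changes the differences themselves, and the falls were unequal between the clone arrays and between the directions. The cause of these falls was not tested. Replicates of a clone differed by a median of 0.150 per gene in clone 1 and 0.135 in clone 2, against 0.077 with shGFP and 0.114 in parental cells.

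The genes with the largest differences did not belong to 1 function. IL1B, SSX1 and SPANXB1 stood above all others in clone 1 at 4.62, 4.40 and 4.17. They were followed by CST1, a cystatin (2.90), the nucleosome assembly gene NAP1L3 (2.86), the complement component C3 (2.77), the calcium-binding protein CALB2 (2.74) and the secreted protease inhibitor SLPI (2.59). CST1 and SLPI were near their control levels in clone 2, at 0.05 and 0.31 against shGFP, whereas in clone 1 they stood at 2.95 and 2.91. At the other end ZNF585B, a zinc finger gene, was lower at -2.40, the immediate early factor EGR1 at -2.31, KRT19 at -2.24, the long noncoding RNA UCA1 at -2.19 and the integrin subunit ITGB4 at -2.10. ZNF585B measured 6.60 and 6.47 in clone 1 and 9.01 and 8.86 in clone 2, where the shGFP mean was 8.65. Clone 2 thus lay with the controls in ZNF585B (0.28 against shGFP, limma adjusted p = 0.055) and clone 1 apart from them.

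The clones differed in a minority of cytokines, by very large amounts in a few. Of 92 measured cytokines and chemokines 11 were higher in clone 1 (against 9.29% of all genes) and 6 lower (against 5.88%), and the median of the list was -0.03, so the counts were near those of all genes. The 11 were led by IL1B, which encodes the secreted pyrogen interleukin 1 beta. Its log2 intensity was 12.10 and 11.91 in clone 1, 7.34 and 7.44 in clone 2, 5.96 and 5.94 with shGFP and 5.74 and 6.06 in parental cells. The clone 1 arrays were thus far above the rest and the clone 2 arrays intermediate. The difference of 4.62 (SE 0.12, limma adjusted p = 4.7e-07) corresponds to 24.6-fold, with IL1B at 6.06 in clone 1 and 1.44 in clone 2 relative to shGFP.

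IL1A, the membrane-associated sister of IL1B, differed less. It measured 11.74 and 11.57 in clone 1 and 10.21 and 10.28 in clone 2, with a shGFP mean of 5.21, and differed by 1.41 (SE 0.09, limma adjusted p = 6.2e-05). IL36G, of the same family, was higher by 0.59, while the receptor antagonist IL1RN differed by -0.08 (adjusted p = 0.81). The interleukin 1 family thus had 3 of 10 members higher and 0 lower. IL6, an acute-phase cytokine, lay at 11.95 and 11.79 in clone 1, 9.91 and 10.14 in clone 2 and 5.74 in shGFP, a difference of 1.85 (SE 0.13, limma adjusted p = 8.6e-05). Both clones were well above the controls in IL6 and did not overlap with each other. CSF3, the granulocyte growth factor, measured 10.43 and 10.36 in clone 1 and 8.72 and 8.90 in clone 2, beside 8.32 in shGFP, so that clone 2 lay only 0.49 above the control. CSF3 differed by 1.59 (SE 0.16, limma adjusted p = 4.3e-04).

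Among chemokines, which attract leukocytes, the CXC group had 4 of 14 members higher and 1 lower. CXCL2, a neutrophil attractant, measured 10.51 and 10.34 in clone 1, 7.82 and 8.32 in clone 2 and 6.34 in shGFP (difference 2.36, SE 0.20, limma adjusted p = 1.8e-04). CXCL1 and CXCL3, its close relatives, were higher by 1.30 and 0.79, and the interferon-responsive CXCL10 by 1.49. CXCL8, also a neutrophil attractant and also high in both clones, overlapped between them: 11.05 and 11.33 in clone 1 and 11.08 and 11.10 in clone 2, a difference of 0.10 (SE 0.15, adjusted p = 0.75). CCL20, which attracts CCR6-bearing cells, measured 9.43 and 9.01 in clone 1, 7.06 and 6.66 in clone 2 and 5.45 in shGFP (difference 2.36, SE 0.18, limma adjusted p = 1.3e-04). CCL28 was higher by 0.56, while CCL2, CCL5 and CXCL11 differed by 0.21, 0.23 and 0.37 and were not called. CXCL1, CXCL2 and CXCL3 are near-identical in part of their sequence, so their values may share signal.

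A smaller group of cytokines was lower in clone 1. IL24, a member of the IL10 family, measured 10.78 and 10.43 in clone 1, 12.05 and 11.95 in clone 2 and 7.88 in shGFP (difference -1.39, SE 0.13, limma adjusted p = 3.8e-04). IL32, the membrane-bound chemokine CXCL16, EBI3 (a subunit of IL27) and IL23A were lower at -1.01, -0.82, -0.75 and -0.50. CCL3, a monocyte attractant, was lower at 7.40 and 7.54 in clone 1 against 8.48 and 8.46 in clone 2. Of these, IL24, IL32, EBI3 and IL23A are 4 of the 29 interleukins outside the IL1 and IL6 families, of which 0 were higher. The TNF family had 0 of 14 ligands called in either direction, and TNF differed by -0.15. LIF, of the IL6 family, differed from shGFP by 3.23 in both clones. IL23A was not called without the first clone 1 array or either clone 2 array (adjusted p = 0.059 to 0.086).

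**Figure D1:**
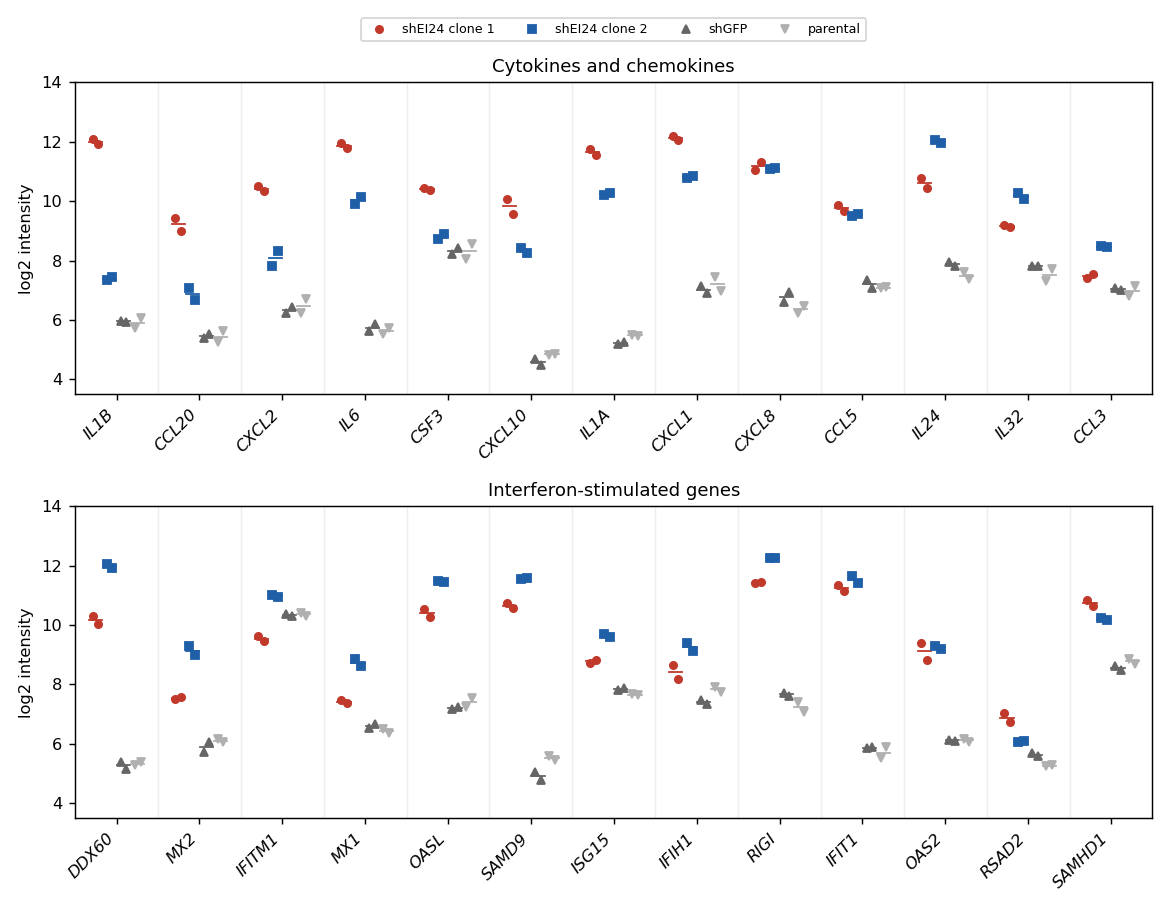
Log2 intensity on each of the 8 arrays for cytokine genes and for interferon-stimulated genes, with points for arrays and a bar at the mean of each line. IL1B reached 12.10 and 11.91 in clone 1 against 7.34 and 7.44 in clone 2, CXCL8 overlapped between the clones, and DDX60 was the higher in clone 2.

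Receptors went both ways, with 10 of 80 higher (12.5%, against 9.29% of all genes), 12 lower (against 5.88%) and a median of -0.06. IL1RAP, the co-receptor that interleukin 1 needs for signaling, was higher in clone 1 at 9.43 and 8.89, against 7.53 and 7.41 in clone 2 (difference 1.69, SE 0.16, limma adjusted p = 3.6e-04), while IL1R1, the receptor it joins, differed by -0.55 without being called (adjusted p = 0.22). OSMR and LIFR, receptors for IL6-family cytokines, were higher by 0.80 and 0.60, and the decoy receptor TNFRSF11B by 1.05. IL7R measured 9.98 and 9.79 in clone 1 and 11.79 and 11.80 in clone 2, with 5.31 in shGFP, and was lower at -1.91 (SE 0.16, limma adjusted p = 1.6e-04). Its partner for thymic stromal lymphopoietin, CRLF2, was lower at -1.57 and the IL33 receptor IL1RL1 at -1.48. The interferon receptor chains IFNAR2 and IFNGR2 were lower at -1.06 and -0.75, and the death receptor FAS at -0.97. Without the first clone 1 array only 4 receptors were higher.

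NF-κB regulators went both ways. Of 41 NF-κB regulators 6 were higher (14.6%) and 10 lower (24.4%), with a median of -0.14. The signaling members had 5 of 24 higher and 2 lower. Of the 5 subunits, NFKB1, NFKB2, REL and RELA were lower at -0.53, -0.45, -0.43 and -0.30, and RELB differed by -0.31 (adjusted p = 0.15). The inhibitor TNFAIP3 measured 11.14 and 11.03 in clone 1 and 11.79 and 11.85 in clone 2, far above the shGFP mean of 6.34 in both (difference -0.73, SE 0.11, limma adjusted p = 0.0031), and the inhibitor NFKBIA was lower at -0.62. TNIP3, an A20-binding protein, went the other way at 8.71 and 8.40 in clone 1 and 6.66 and 6.56 in clone 2 (difference 1.94, SE 0.12, limma adjusted p = 5.3e-05). The interleukin 1 receptor-associated kinases IRAK3 and IRAK2 were higher by 0.94 and 0.63 and the adaptor TRAF3 by 0.75. Without the first clone 2 array 5 of these regulators were higher and 5 lower, and NFKB2 was not called (adjusted p = 0.066). REL lost its call without any 1 of 7 arrays and RELA without any 1 of the 8 (adjusted p up to 0.2 and 0.14), and IRAK3 without the first clone 1 or the second clone 2 array (0.13 and 0.11).

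Genes known to be induced by TNF were likewise split, with 18 of 101 higher (17.8%), 28 lower (27.7%) and a median of -0.16. TNFAIP6, a hyaluronan-binding secreted protein, was higher by 2.56, and PTGS2 (COX-2), the inducible prostaglandin synthase, by 0.75, with differences from shGFP of 7.64 in clone 1 and 6.89 in clone 2. The lower members included immediate early and feedback genes. EGR1 measured 9.97 and 9.84 in clone 1, 12.28 and 12.15 in clone 2 and 8.21 in shGFP. KLF4, a zinc finger factor, the mRNA-destabilizing protein ZFP36 and the stress factor ATF3 were lower at -1.29, -1.20 and -1.09. FOSL1, an AP-1 subunit, was lower at -1.23 (SE 0.31, limma adjusted p = 0.03), with its clone 2 arrays far apart at 12.08 and 11.19. FOSL1 was not called without either clone 1 array or without that first clone 2 array (adjusted p = 0.08 to 0.14).

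A match to the κB consensus was searched on both strands from 250 bases before to 50 bases after the RefSeq start (GRCh38.p14) of the 14239 genes with a promoter sequence, and 8.52% of them held one. Among cytokines it was in 6 of the 10 genes higher in clone 1 that had a promoter sequence (60.0%) and in 2 of the 5 lower. It was in 19 of 66 cytokines of the whole list (28.8%). Among NF-κB regulators lower in clone 1 it was in 6 of 9 (66.7%), beside 15 of 35 of the whole list (42.9%). Those matches thus stood beside genes that differed in either direction. The 6 higher cytokines with a match were CCL20, CXCL2, IL6, CXCL10, CXCL1 and CXCL3, and did not include IL1B, which differed most. The stretches of 4 of these genes are shown, with the match in capitals. CCL20 is given from chr2:227813741-227813794 on the plus strand, CXCL2 from chr4:74099241-74099294 on the minus strand, IL6 from chr7:22727105-22727158 on the plus strand and CXCL1 from chr4:73869293-73869346 on the plus strand. The CXCL1 and CXCL2 stretches hold the same capital letters, although the 2 genes differed between the clones by 1.30 and 2.36.
CCL20: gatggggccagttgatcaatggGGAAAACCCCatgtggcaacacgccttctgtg
CXCL2: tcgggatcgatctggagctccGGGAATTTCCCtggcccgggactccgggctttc
IL6: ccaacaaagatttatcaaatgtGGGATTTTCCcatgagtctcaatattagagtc
CXCL1: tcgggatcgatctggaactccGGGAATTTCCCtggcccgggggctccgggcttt

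Most interferon-stimulated genes that differed were lower in clone 1. Of 105 measured, 32 were lower (30.5%, against 5.88% of all genes) and 2 higher (1.90%), with a median of -0.17, although both clones expressed most of the named members well above shGFP. The number lower was 18 without the first clone 2 array. DDX60, a helicase that acts with RNA sensors, measured 10.32 and 10.04 in clone 1, 12.07 and 11.92 in clone 2 and 5.38 and 5.17 in shGFP. All 4 knockdown arrays were above the controls and the clones did not overlap. The difference was -1.82 (SE 0.12, limma adjusted p = 6.9e-05), with DDX60 at 4.90 in clone 1 and 6.72 in clone 2 relative to shGFP.

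The cytosolic RNA and DNA sensors and transcription factors of the pathway had 7 of 12 members lower and 0 higher. RIGI and IFIH1, sensors of viral RNA, were lower at -0.81 and -0.85, their regulator DHX58 at -0.71 and the DNA sensing adaptor STING1 at -0.79. The transcription factors IRF1 and IRF9 were lower at -0.80 and -0.58. ISG15, a ubiquitin-like protein, measured 8.74 and 8.83 in clone 1 and 9.69 and 9.59 in clone 2 (difference -0.86, SE 0.09, limma adjusted p = 5.1e-04), and 4 of the 6 genes of its conjugation system were lower, among them its ligase HERC5 (-0.71). Without the first clone 2 array IFIH1 and HERC5 were not called (adjusted p = 0.063 for both), nor HERC5 without the second clone 1 array (0.055).

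The antiviral effectors were the mixed group, with 8 of 38 lower and 2 higher. MX1 and MX2, GTPases that trap viral particles, measured 7.47 and 7.36, and 7.50 and 7.58, in clone 1 and 8.85 and 8.63, and 9.28 and 8.99, in clone 2. They were lower at -1.33 (SE 0.11, limma adjusted p = 1.7e-04) and -1.60 (SE 0.13, limma adjusted p = 1.9e-04). OASL and SAMD9 were lower at -1.06 and -0.89. IFITM1, which blocks viral entry, lay at 9.62 and 9.45 in clone 1 and 11.01 and 10.95 in clone 2, on either side of the shGFP arrays at 10.36 and 10.32. RSAD2 (viperin) was the higher in clone 1 at 7.03 and 6.74 against 6.07 and 6.09 (difference 0.81, SE 0.11, limma adjusted p = 0.0019), as was SAMHD1 by 0.56. IFIT1, IFIT2 and IFIT3, strongly elevated in both clones, differed by -0.28, -0.17 and -0.16, and OAS1, OAS2 and OAS3 by 0.06, -0.14 and 0.11, none of them called. SAMHD1 was not called without the first clone 1 or the second clone 2 array (adjusted p = 0.054 and 0.053).

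Among 16 interferon genes 3 were lower and 0 higher, all of type III. IFNL1 measured 8.83 and 8.72 in clone 1, 10.19 and 10.33 in clone 2 and 6.85 in shGFP (difference -1.49, SE 0.10, limma adjusted p = 5.6e-05), and IFNL3 and IFNL2 were lower at -0.69 and -0.47. These 3 genes are similar in sequence, so their values may share signal. Without the first clone 1 array IFNL1 alone was called, with IFNL2 at -0.43 and IFNL3 at -0.59. IFNL2 also lost its call without 4 other arrays (adjusted p up to 0.22) and IFNL3 without the first clone 2 array (0.071). IFNB1, at 4.60 and 4.54 in clone 1 and 4.61 and 4.69 in clone 2, was dim beside a shGFP mean of 4.58 as well.

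The interferon-stimulated response element, searched as GAAANNGAAA on both strands, was in 4.12% of all promoter windows, in 46 of the 74 windows of interferon-stimulated genes (62.2%) and in 13 of the 22 windows of those lower in clone 1 (59.1%). The share was thus similar in the lower members and in the whole list. The stretches of 4 lower genes of different roles are given with the element in capitals: DDX60 from chr4:168318774-168318827 on the minus strand, ISG15 from chr1:1013368-1013421 on the plus strand (with 2 overlapping matches), SAMD9 from chr7:93118084-93118137 on the minus strand and IFIH1 from chr2:162318685-162318727 on the minus strand.
DDX60: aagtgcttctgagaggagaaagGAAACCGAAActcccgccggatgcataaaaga
ISG15: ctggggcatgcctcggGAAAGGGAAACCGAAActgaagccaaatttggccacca
SAMD9: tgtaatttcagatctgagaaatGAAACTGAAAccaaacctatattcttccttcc
IFIH1: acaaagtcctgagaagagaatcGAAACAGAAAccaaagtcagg

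The most uniform difference between the clones was in DNA replication. Of 65 replication genes 54 were higher in clone 1 (83.1%, against 9.29% of all genes) and 0 were lower, with a median of 0.68 and 63 of 65 on the positive side. The median level of the list was 9.28 in clone 1, 8.67 in clone 2, 9.99 with shGFP and 10.24 in parental cells, so clone 1 lay between clone 2 and the controls. CDC6, which loads the replicative helicase onto origins, measured 10.62 and 10.61 in clone 1, 8.73 and 8.64 in clone 2, 10.42 and 10.33 with shGFP and 10.81 and 10.78 in parental cells. The clone 1 arrays lay among the controls and both clone 2 arrays far below them. The difference was 1.93 (SE 0.09, limma adjusted p = 7.6e-06), or 3.80-fold.

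The pattern ran through the licensing and fork machinery. Of the 17 origin licensing genes 13 were higher, including MCM3, MCM4, MCM7, MCM2 and MCM5 of the helicase ring by 1.12, 0.93, 0.90, 0.76 and 0.69, whereas MCM6 differed by 0.23 (adjusted p = 0.22). MCM10, which helps activate the helicase, was higher by 1.35. At the fork 36 of 41 were higher, among them the primase PRIM1 (1.32), the clamp loader subunits RFC3 and RFC4 (1.17 and 1.16) and the sliding clamp PCNA (0.95). EXO1, an exonuclease of repair and replication, lay at 9.34 and 9.23 in clone 1 and 7.71 and 7.80 in clone 2 (difference 1.52, SE 0.09, limma adjusted p = 3.7e-05). For nucleotide supply 5 of 7 were higher, including RRM2 (0.93), TYMS (0.65) and DUT (0.54). The 11 members not called were ORC2, ORC3, ORC4, MCM6, DBF4, RFC1, POLD1, RPA2, RPA3, DCK and DTYMK.

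Regulators of entry into S phase moved in the same direction in part, with 10 of 35 higher (28.6%), 2 lower (5.71%) and a median of 0.14. CCNE2, a cyclin that drives this transition, measured 10.42 and 10.19 in clone 1 and 8.87 and 8.73 in clone 2, with 10.64 in shGFP (difference 1.50, SE 0.10, limma adjusted p = 8.2e-05). The pocket protein RBL1, the phosphatase CDC25A, E2F8, CDK4 and E2F1 were higher by 1.03, 0.99, 0.69, 0.60 and 0.48. The inhibitors CDKN1A (p21) and BTG1 were the 2 lower genes, at -0.43 and -0.31, and CDKN2A differed by -0.04. Inhibitors as a group went both ways, with 2 of 12 higher, RBL1 among them, and 2 lower (16.7% each). Without the first clone 1 array, or without the first clone 2 array, 6 of these regulators were higher. E2F1 was not called without either clone 1 array or the first clone 2 array (adjusted p = 0.051 to 0.11), CDKN1A without the second clone 1 or first clone 2 array (0.06 and 0.082) and BTG1 without any 1 of the 8 (0.059 to 0.18).

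Mitosis genes were higher less uniformly. Of 108, 47 were higher (43.5%) and 1, the condensin subunit SMC2 (-0.55), was lower, with a median of 0.28. The number higher was 24 without the first clone 1 array and 23 without the second clone 2 array. MYBL2, a transcription factor of late cell cycle genes, measured 10.82 and 10.79 in clone 1, 9.22 and 9.39 in clone 2 and 11.46 in shGFP (difference 1.50, SE 0.09, limma adjusted p = 4.8e-05). FOXM1, its partner in the G2 program, was higher by 1.00, the kinetochore protein SKA3 by 1.09, the motor KIF15 by 1.08 and the condensin subunit NCAPH by 0.97. The proliferation markers MKI67 and TOP2A differed by 0.19 and 0.16 with adjusted p of 0.17 and 0.33. Mitotic cyclins, kinases and phosphatases had 7 of 20 higher (35.0%) and 0 lower, and kinetochore and centromere genes 18 of 28 higher (64.3%) and 0 lower. The cyclins and kinases CCNB1, CCNA2, CDK1, AURKA and BUB1 differed by 0.20, 0.02, -0.01, 0.17 and 0.13, none of them called. SMC2 was not called without the second clone 1 or the first clone 2 array (adjusted p = 0.056 and 0.076).

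Histone genes followed the replication genes. Of 48 replication-dependent histone genes 27 were higher (56.2%) and 1, H1-3 (-0.35), was lower, with a median of 0.43. Their median level was 7.86 in clone 1, 7.42 in clone 2, 10.14 with shGFP and 10.08 in parental cells, so both clones were far below the controls. H2BC14 measured 11.59 and 11.69 in clone 1, 9.70 and 9.74 in clone 2 and 12.04 in shGFP (difference 1.92, SE 0.10, limma adjusted p = 2.2e-05). H2BC3 lay above its control level of 6.45 in both clones, at 9.77 and 9.42 in clone 1 and 7.57 and 7.38 in clone 2 (difference 2.13, SE 0.16, limma adjusted p = 1.2e-04). H3C12, H3C1, H4C8 and H4C2 were higher by 1.79, 1.60, 1.53 and 1.45. Histone genes are near-identical copies whose probes may share signal. H1-3 lost its call without any 1 of 6 arrays (adjusted p = 0.07 to 0.11).

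**Figure D2:**
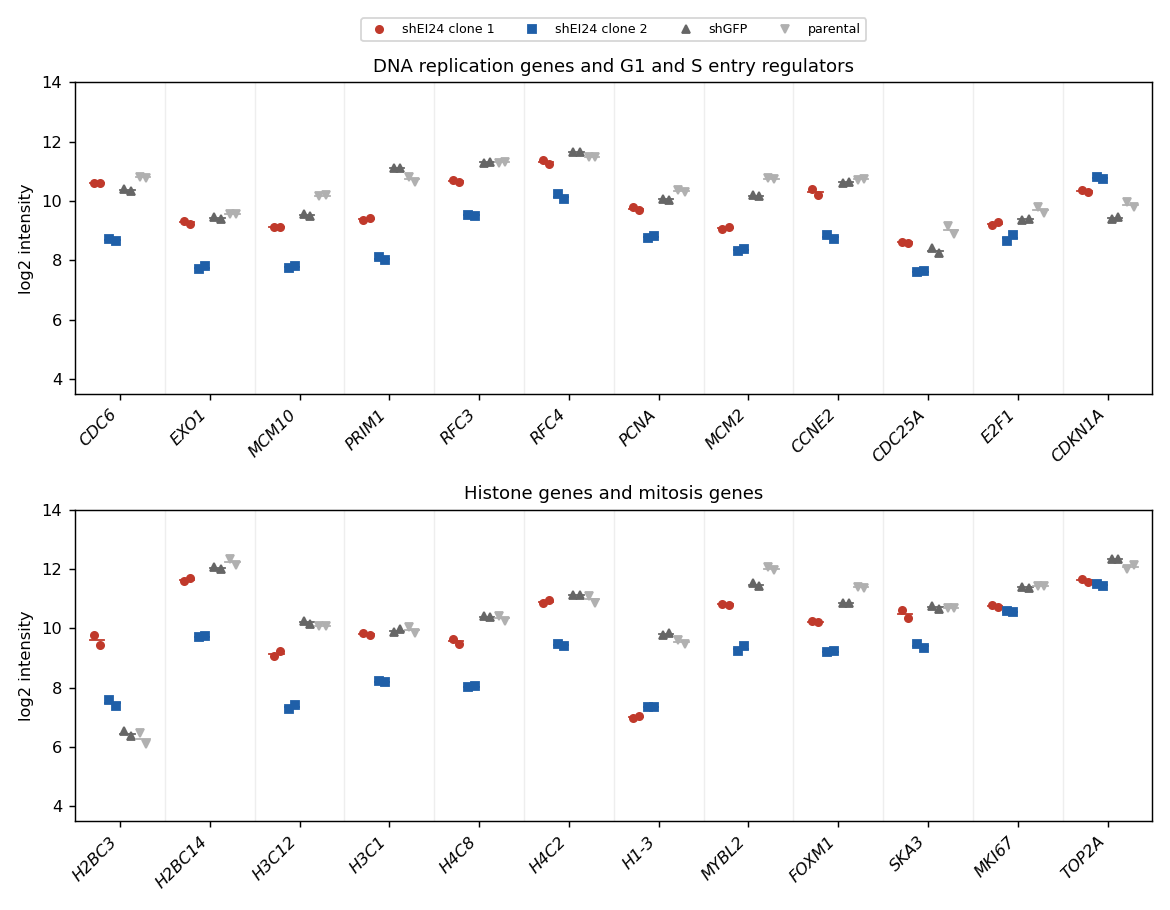
Log2 intensity on each of the 8 arrays for cell cycle and histone genes, with points for arrays and a bar at the mean of each line. CDC6 lay at 10.62 and 10.61 in clone 1, among the controls, and at 8.73 and 8.64 in clone 2, while MKI67 ran from 10.55 to 10.78 on the 4 knockdown arrays.

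A perfect match to the E2F site, searched as TTTGGCGC or TTTCGCGC on both strands, was present in 1.97% of all promoter windows. It was in 16 of the 49 windows of replication genes higher in clone 1 (32.7%) and in 18 of the 58 of the whole list (31.0%), and in 5 of the 23 windows of histone genes higher in clone 1 (21.7%). The stretches around 4 of these matches, with the match in capitals, come from MCM7 (chr7:100101398-100101428, minus strand), POLA2 (chr11:65261887-65261938, plus strand), DUT (chr15:48332148-48332196, plus strand) and GMNN (chr6:24775311-24775362, plus strand), chosen because they cover helicase, polymerase, nucleotide supply and licensing control. POLA2 was higher by 0.85 and GMNN, the licensing inhibitor geminin, by 0.47, a call that GMNN lost without any 1 of 7 arrays (adjusted p = 0.057 to 0.19).
MCM7: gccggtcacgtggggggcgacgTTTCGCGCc
POLA2: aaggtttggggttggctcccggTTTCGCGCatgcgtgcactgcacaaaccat
DUT: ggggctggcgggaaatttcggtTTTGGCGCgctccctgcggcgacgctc
GMNN: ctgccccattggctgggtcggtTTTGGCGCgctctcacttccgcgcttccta

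Cancer-testis genes differed in 2 members by a very large amount and otherwise little. Of 132 measured, 5 were higher in clone 1 (3.79%, against 9.29% of all genes) and 1 lower (0.758%), with a median of -0.04. SSX1, a transcriptional repressor of the testis encoded on the X chromosome, measured 11.94 and 11.82 in clone 1, 7.57 and 7.38 in clone 2, 4.62 and 4.77 with shGFP and 5.33 and 5.20 in parental cells. SPANXB1, a sperm nuclear protein also on the X chromosome, measured 11.92 on both arrays of clone 1, 7.83 and 7.67 in clone 2, 5.68 and 5.90 with shGFP and 6.24 and 6.28 in parental cells. In both genes clone 1 was highest, clone 2 was intermediate and the controls were dim, without overlap between any of the 3. SSX1 differed by 4.40 (SE 0.11, limma adjusted p = 4.2e-07), or 21.1-fold, and SPANXB1 by 4.17 (SE 0.10, limma adjusted p = 4.2e-07), or 17.9-fold.

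No other measured cancer-testis gene was called with a difference of at least 2-fold. SSX3 was higher by 0.56 but dim in clone 1 at 5.42 and 5.51, and SSX5 differed by 0.05. CT83 measured 8.54 and 8.01 in clone 1 and 7.68 and 7.76 in clone 2, above the shGFP mean of 5.98 in both, without being called (difference 0.56, SE 0.17, limma adjusted p = 0.06). None of 14 MAGE genes was called in either direction, and CTAG2 differed by -0.05. IGF2BP3, an autosomal RNA-binding protein of the oncofetal type, measured 9.19 and 9.09 in clone 1 and 8.57 and 8.58 in clone 2, against 4.90 in shGFP (difference 0.56, SE 0.12, limma adjusted p = 0.017). IL13RA2, the decoy IL13 receptor, was higher by 0.41 at levels at or below 4.44, and SPAG9 was lower at -0.34. Members of the SSX and SPANX families are close copies and may share signal. The count of 5 higher genes also changed when single arrays were left out. The calls lost in this way were those of IGF2BP3 (adjusted p = 0.066 to 0.083), IL13RA2 (0.057 and 0.08) and SSX3 (0.059 to 0.11), and SPAG9 was not called without any 1 of the 8 arrays (0.055 to 0.15).

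**Figure D3:**
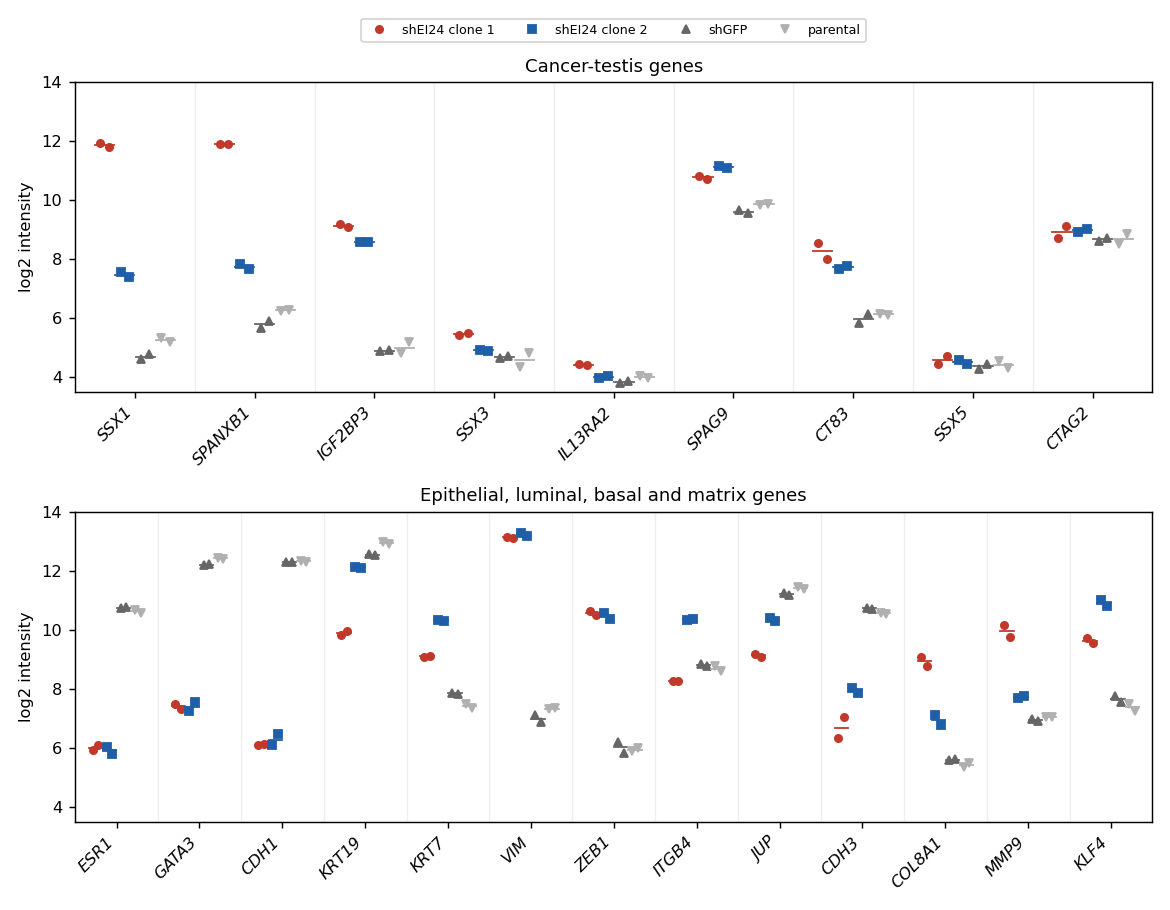
Log2 intensity on each of the 8 arrays for cancer-testis genes and for luminal, basal and junction genes, with points for arrays and a bar at the mean of each line. SSX1 and SPANXB1 lay between 11.82 and 11.94 in clone 1 and between 7.38 and 7.83 in clone 2, ESR1 and CDH1 were low in both clones, and KRT19 was lowest in clone 1.

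Epithelial junction genes that differed between the clones were mostly lower in clone 1, whereas luminal identity genes were split. Of 46 epithelial junction genes 16 were lower (34.8%) and 3 higher (6.52%), with a median of -0.15. KRT19, a luminal keratin, measured 9.85 and 9.96 in clone 1, 12.16 and 12.12 in clone 2, 12.59 and 12.54 with shGFP and a mean of 12.96 in parental cells. Both clones were called below shGFP, clone 2 at -0.43 and clone 1 at -2.67 (difference between the clones -2.24, SE 0.09, limma adjusted p = 6.5e-06). CDH3 (P-cadherin), the desmosomal catenin JUP and the polarity proteins PATJ and LLGL2 were lower at -1.26, -1.21, -1.10 and -0.85, and lay below shGFP in both clones. EHF, an epithelial ETS factor, CLDN1, a tight junction protein, and CTNNB1, beta-catenin, were the 3 higher genes, by 1.38, 1.10 and 0.50. Relative to shGFP, EHF stood at 1.78 in clone 1 and 0.40 in clone 2, CLDN1 at 4.16 and 3.06 and CTNNB1 at 0.32 and -0.17. The luminal identity list had 6 of 40 higher and 7 lower, with KRT7 and ERBB3 lower at -1.23 and -0.69 and AGR2 and CA12 higher by 1.19 and 0.93. Of these, KRT7 stood above shGFP in both clones (1.26 in clone 1 and 2.49 in clone 2) and ERBB3 below it (-3.14 and -2.45). Of 20 basal markers 4 were lower and 0 higher. ITGB4, the hemidesmosomal integrin, measured 8.29 and 8.26 in clone 1 and 10.36 and 10.39 in clone 2, on either side of shGFP at 8.86 and 8.79. KRT14 and ACTA2 were lower at -0.77 and -0.64, and relative to shGFP stood at 0.33 and 0.44 in clone 1 and 1.10 and 1.08 in clone 2. KRT14 was not called without the first clone 1 array or either clone 2 array (adjusted p = 0.057 to 0.092).

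Matrix, protease and growth factor lists had medians near 0 and a few large differences. Of 90 mesenchymal and matrix genes 12 were higher (13.3%, against 9.29% of all genes) and 6 lower (6.67%, against 5.88%), with a median of 0.02 and with COL8A1, a short-chain collagen, at 2.00, the laminin chain LAMB1 at 1.77 and SRPX at 1.53. LAMB1 was below its controls in both clones, at -1.28 and -3.05 against shGFP. Of 49 proteases and inhibitors of invasion 9 were higher (18.4%) and 2 lower (4.08%), with a median of 0.04. MMP9, a gelatinase, measured 10.16 and 9.77 in clone 1, 7.70 and 7.78 in clone 2 and 6.95 in shGFP (difference 2.23, SE 0.12, limma adjusted p = 3.0e-05). TIMP3, a metalloproteinase inhibitor, was higher by 1.70, and the stromelysin MMP10 was lower at -1.35. In the TGF-beta and BMP list, where 9 of 60 were higher and 4 lower with a median of 0.03, the receptor TGFBR2 and the latency protein LTBP1 were higher by 1.68 and 1.67 and the target genes ID2 and ID1 lower at -1.33 and -0.62. INHBA, the activin A subunit, was higher by 0.88. Growth factor ligands had 8 of 34 higher (23.5%) and 2 lower (5.88%), with a median of -0.04. Receptor kinases had 3 of 39 higher (7.69%) and 2 lower (5.13%), near the shares of all genes (9.29% and 5.88%). The higher ligands included PDGFD (1.06), the ERBB ligands NRG1 (0.94) and EREG (0.78) and PDGFC (0.75). EREG was not called without the second clone 2 array (adjusted p = 0.054).

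Innate and antigen-presenting genes outside the interferon list were split by gene. C3, the central complement component, measured 11.81 and 11.74 in clone 1, 9.04 and 8.97 in clone 2 and 6.69 in shGFP (difference 2.77, SE 0.10, limma adjusted p = 3.6e-06), and CFB was higher by 0.72. Complement had 4 of 26 genes higher (15.4%, against 9.29% of all genes) and 1 lower (3.85%, against 5.88%), with a median of -0.06. Antigen presentation had 5 of 32 higher (15.6%) and 1 lower (3.12%), with a median of 0.00. The class II genes HLA-DPA1 and HLA-DMA were higher by 1.02 and 1.00, while the peptide transporter TAP1, also an interferon target, was lower at -0.76. HLA genes are similar to each other and their probes may share signal.

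Stress and metabolic lists showed smaller differences, and the shares over all genes were 9.29% higher and 5.88% lower. Of 31 p53 target genes 8 were lower (25.8%) and 2 higher (6.45%), with GADD45A, the proapoptotic PMAIP1 and FAS at -1.01, -0.97 and -0.97. Targets of ATF4, the factor of amino acid stress, had 11 of 39 lower (28.2%) and 5 higher (12.8%), with ASNS, CHAC1 and DDIT3 lower at -1.07, -1.02 and -0.81. Chaperones and sensors of the endoplasmic reticulum instead had 8 of 28 higher (28.6%) and 2 lower (7.14%), with DNAJC3 and DNAJB11 at 0.86 and 0.85. Of 32 NRF2 targets 9 were higher (28.1%) and 1, TXN (-0.64), lower (3.12%). AKR1C1, an aldo-keto reductase in that list, was higher by 1.40 on its brightest probe set but differed by 0.10 on another. Sterol and fatty acid genes had 6 of 29 higher (20.7%) and 1 lower (3.45%), including FADS1 and SCD at 0.53 and 0.48. Hypoxia and glycolysis genes had 5 of 41 higher (12.2%) and 4 lower (9.76%), with VEGFA at 0.67 and HIF1A at -0.64. Their median was 0.15, and 33 of the 41 lay on the positive side. Of 46 autophagy genes 5 were higher (10.9%) and 6 lower, 1 of the 6 being EI24 itself, with ATG12 at -1.16, the receptor OPTN at -0.57 and ATG7 at 0.56. Respiratory chain subunits had 3 of 62 higher (4.84%) and 6 lower (9.68%). SCD and ATG7 were not called without the first clone 1 array (adjusted p of 0.061 and 0.07) or the second clone 2 array (0.073 and 0.085), nor OPTN without the first clone 2 array (0.052).

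The differences were unevenly spread over the chromosomes. This comparison was chosen after the values were seen. On chromosome 3, 271 of 1011 genes were higher in clone 1 (26.8%) and 12 lower (1.19%), against 9.32% and 5.89% of the 18368 genes with a position. On chromosome 9 the split was the opposite, with 11 higher (1.50%) and 154 of 732 lower, as on chromosome 21 with 3 higher (1.27%) and 39 of 237 lower (16.5%). Over the remaining chromosomes the share of higher genes ran from 3.28% (chromosome 19) to 11.6% (chromosome 5) and that of lower genes from 3.18% (chromosome 20) to 8.71% (chromosome 19). The median differences were 0.12, -0.14 and -0.10 on chromosomes 3, 9 and 21, and between -0.07 and 0.02 elsewhere. On chromosome 3 the arrays numbered 1 and the arrays numbered 2 each gave a median of 0.13, and on chromosome 9 they gave -0.15 and -0.13.

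The shift was clearest in genes brighter than the median gene. Of those, 211 of 492 on chromosome 3 were higher in clone 1 (42.9%, median 0.29), 130 of 361 on chromosome 9 were lower (36.0%, median -0.27) and 30 of 101 on chromosome 21 were lower (29.7%, median -0.18). Set against shGFP, whose arrays both comparisons share, the brighter genes of chromosome 3 had medians of -0.04 in clone 1 and -0.34 in clone 2, those of chromosome 9 -0.39 and -0.08, and those of chromosome 21 -0.22 and -0.01, beside -0.11 and -0.13 over all brighter genes. Medians that far from 0 also occurred where the clones were alike, as on chromosome 15 (-0.45 in clone 1 and -0.51 in clone 2) and chromosome 7 (-0.36 and -0.41). In windows of 20 Mb the share of higher genes ran from 14.9% to 43.2% along chromosome 3, and that of lower genes from 11.9% to 25.6% along chromosome 9, leaving out a window with 1 gene. Between shGFP and parental cells 3.17% and 6.82% of chromosome 3 genes were called higher and lower, close to 3.22% and 7.46% of all genes. With any 1 array left out between 160 and 246 chromosome 3 genes were higher, and between 73 and 140 chromosome 9 genes and 20 and 39 chromosome 21 genes lower. The chromosome shares are a description without a test, and a cause of this distribution was not tested.

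**Figure D4:**
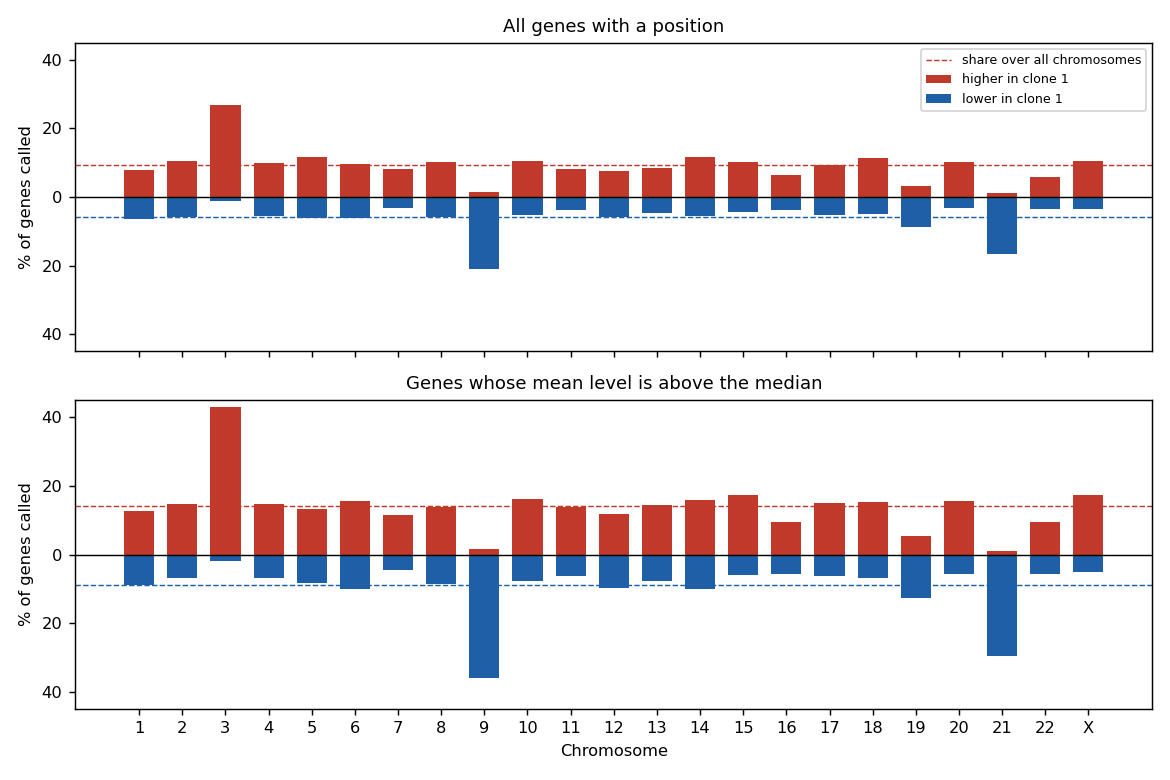
Percent of genes called higher (above 0) and lower (below 0) in clone 1 than in clone 2 on each chromosome, for all placed genes and for genes above the median mean level, with dashed lines at the shares over all chromosomes. Chromosome 3 stood out for higher genes (26.8% and 42.9%) and chromosomes 9 and 21 for lower genes (154 of 732 and 39 of 237, and 36.0% and 29.7% of the brighter genes).

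Several genes described above lie on these chromosomes. IL1RAP, TGFBR2, COL8A1, CLDN1, CTNNB1, RFC4, MCM2, CDC25A, KIF15 and DNAJB11 are on chromosome 3 and were higher in clone 1. RIGI, KLF4, TXN and SMC2 on chromosome 9, and MX1, MX2, IFNAR2 and IFNGR2 on chromosome 21, were lower. Without the genes of the 3 chromosomes, 1426 genes were higher and 878 lower. Several lists kept most of their counts: 51 replication genes, 43 mitosis genes, 27 histone genes, 11 cytokines and 5 cancer-testis genes were higher. Lower were 27 interferon-stimulated genes and 16 junction genes. Other lists depended on them more. Chromosome 3 held 3 of the 10 higher cytokine receptors and 3 of the 9 higher TGF-beta and BMP genes, and chromosome 21 held 3 of the 12 lower receptors.

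Runs of neighboring genes that were higher together were found on 3 chromosomes, again after the values were seen, by taking windows of 10 neighboring genes with at least 8 called. On chromosome 5 all 10 genes from PCDHB8 to PCDHB15, clustered protocadherins of cell adhesion, were higher, with a median of 0.72 and PCDHB14 at 1.72. These genes are similar to each other in sequence and may share signal. PCDHB2, outside that run, was higher by 2.47, with differences from shGFP of -0.55 in clone 1 and -3.02 in clone 2. On chromosome 6, 8 of 10 genes of a histone cluster were higher (median 0.94). On chromosome 3, 9 of 11 genes from ST3GAL6 to TFG were higher (median 0.60), led by COL8A1 and by TMEM45A (1.79), but without the first clone 1 array or the second clone 2 array ST3GAL6, NIT2, TOMM70 and TFG lost their calls (adjusted p = 0.069 to 0.14).
 PCDHB8 was not called without the first clone 1 array (adjusted p = 0.051) or the second clone 2 array (0.054), nor TFG without 5 further arrays (0.053 to 0.087).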

How the data were processed

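Total RNA of 8 samples was labeled with biotin and hybridized to Affymetrix arrays. The methods name a human exon array, while the probe set identifiers match the annotation of the Human Gene 1.0 ST array, which was used for gene names. The authors deposited a log2 intensity for each transcript cluster, obtained with RMA (background correction, quantile normalization and probe summary), and the submitters' processing notes also name GCOS. No version of either is given in the sources used here. Such summaries pull low intensities together and so understate differences of dim genes, and the small number of arrays limits precision. The medians of the arrays ran from 7.28 to 7.39.

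Of 33297 transcript clusters, 19460 carried 1 gene symbol, 1754 several and 12083 were unnamed here. Each of 18417 genes was represented by its brightest cluster on average, and 1043 second clusters were set aside. A model with the 4 lines as groups was fitted to all 8 arrays with limma 3.58.1 (R 4.3.3, lmFit and eBayes), and p-values were adjusted by the Benjamini-Hochberg method over all genes at a threshold of 0.05. The 29 gene lists held 1518 measured genes of 1789 symbols. The members and lists were chosen with earlier results of these data known. Genes were named by a rule: EI24, the 12 genes with the highest and the 12 with the lowest difference among those called without overlap of the clones, up to 6 called members of each list with the largest difference and up to 2 called the other way, genes of runs of called neighbors, and 22 genes whatever their call. In addition, 58 genes were named outside the rule, after their values were seen. Promoter sequences came from RefSeq (GRCh38.p14), and the E2F search was chosen after the data were seen. Alternatives covered the samples fitted, a replicate block, the variance model, normalization, dim genes, the choice of cluster, the t-test of the methods and each array left out. The script was tested on simulated data. Python 3.11.15, pandas 2.3.3 and matplotlib 3.10.9 were used for tables and figures.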

Additional observations from a re-analysis of the deposited data

Results flagged for a closer look

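In 9 of the named genes, the clones differed from shGFP in opposite directions, each called in the limma fit, and the clones differed from each other. The 2 comparisons share the shGFP arrays. LIPH, a phospholipase, stood at 1.84 in clone 1 and -0.68 in clone 2 relative to shGFP (difference between the clones 2.52). CDC6 stood at 0.24 and -1.69 (1.93), with its clone 1 value only just past the threshold (adjusted p = 0.047). AKR1C1 stood at 0.80 and -0.60 (1.40), PCDHB10 at 0.53 and -0.48 (1.01) and the chaperone DNAJB11 at 0.52 and -0.33 (0.85). CMSS1 stood at 0.34 and -0.42 (0.76) and the signaling adaptor TAB3 at 0.30 and -0.39 (0.69). The AKR1C1 values come from its brightest probe set, while another differed by only 0.10 between the clones. ITGB4 and IFITM1 were the reverse, at -0.55 and 1.55 (-2.10), and at -0.80 and 0.64 (-1.44).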

How the results depend on the processing

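Counts of genes called depended on the arrays and the test more than on the normalization. Against 1711 higher and 1083 lower genes, a fit to only the 4 shEI24 arrays gave 956 and 500, and leaving out each array in turn gave 970 to 1531 and 466 to 946. A second quantile normalization gave 1698 lower genes. The methods' t-test gave 2 higher and 2 lower after the Benjamini-Hochberg adjustment, and 1758 and 1238 at an unadjusted p under 0.05, with 0 at least 2-fold in either direction after adjustment. Testing against a 2-fold threshold (limma's treat) gave 35 higher and 9 lower genes, against 200 and 82 at least 2-fold. With the replicate block 2391 genes were higher and 1788 lower. The labels do not say that a number marks a shared batch, and with 2 numbers the pairing could not be settled: array deviations correlated at 0.587 between the clones and at 0.248 to 0.371 for other pairs of lines, with 2 numbers. Of the 251 named genes called, all kept their call with the replicate block, and 183 did under every alternative but the t-test, of those in which they were tested. The median of interferon-stimulated genes (-0.17) was -0.21 after the second quantile normalization, -0.20 without the dimmest 25% of genes, -0.19 on the arrays numbered 1 and -0.16 without chromosomes 3, 9 and 21 (both chosen after seeing the data), and -0.26 to -0.16 with an array left out. That of cytokines (-0.03) ran from -0.10 to 0.08 with an array left out and so has no settled sign. The medians of replication, mitosis and cancer-testis genes moved by less than the spread between replicates under the alternatives run. No alternative turned the sign of a named gene that was called. No depth applies to arrays, where dim genes have compressed differences. The causes of these shifts were not tested.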
